A study of Mus musculus with 2 samples.

Results

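The transcripts of 8 secreted adhesion molecules were followed through the cell types of the mouse thoracic aorta: *Npnt*, *Egflam*, *Emilin1*, *Fn1*, *Vtn*, *Svep1*, *Tinagl1* and *Edil3*. They were chosen by symbol from the 32287 features counted, as ligands or partners of integrins α8, α9 and αV, and all 8 were present in the feature list. Single-cell RNA-seq had been run on 2 thoracic aortas from 12-week-old GFPiSMC mice on the C57BL/6J strain (1 wild-type group, n = 2 aortas from individual animals). GFPiSMC stands for *Myh11-CreERT2* with the *mT/mG* reporter, in which a Cre recombinase driven by the smooth muscle myosin promoter switches tdTomato to GFP after tamoxifen. From an age of 3 weeks, both mice were injected intraperitoneally with tamoxifen on 5 days (1 mg per day), so neither library comes from an animal without tamoxifen, and none lacks a TGF-β receptor. Males are named in the methods. Viable single cells were sorted after cold digestion without selection for GFP, so that all layers of the wall could contribute.

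Integrins are αβ heterodimers that tie the cytoskeleton of a cell to the extracellular matrix (ECM), and many of them recognize the tripeptide arginine-glycine-aspartate (RGD) in their ligands. Nephronectin, the product of *Npnt*, is a basement membrane protein best known as the ligand of integrin α8β1, and α8 is the abundant α subunit of vascular smooth muscle cells (SMCs). Basement membranes wrap each SMC of the aortic media and underlie the endothelium, whereas the adventitia is a fibrillar matrix made by fibroblasts.

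The RGD codons of the genes are printed because RGD is how many of these ligands are recognized. Since the genes were chosen as integrin ligands or partners, how often they hold such codons is a description, and nothing is read from the excess over other genes. In the annotation of mouse build GRCm38 (1 coding transcript per gene), 6 of the 8 genes held at least 1 in-frame run of Arg-Gly-Asp codons, against 1547 of 21591 genes (7.17%) with a coding transcript. Each sequence is written 5′ to 3′ on the coding strand, the capitals mark the 9 bases of the Arg-Gly-Asp codons, and the coordinates are those of the capitals.
Npnt, exon 9, codons 399 to 401, chr3:132904665-132904673, minus strand: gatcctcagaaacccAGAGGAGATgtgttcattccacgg
Fn1, exon 30, codons 1614 to 1616, chr1:71606746-71606754, minus strand: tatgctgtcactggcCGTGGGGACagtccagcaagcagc
Fn1, exon 40, codons 2181 to 2183, chr1:71597443-71597451, minus strand: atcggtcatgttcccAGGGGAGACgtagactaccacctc
Vtn, exon 3, codons 64 to 66, chr11:78499706-78499714, plus strand: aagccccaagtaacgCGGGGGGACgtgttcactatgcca
Emilin1, exon 4, codons 578 to 580, chr5:30918148-30918156, plus strand: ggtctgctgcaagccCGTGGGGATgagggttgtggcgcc
Edil3, exon 4, codons 96 to 98, chr13:89042491-89042499, plus strand: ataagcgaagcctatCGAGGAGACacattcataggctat
Egflam, exon 10, codons 434 to 436, chr15:7251235-7251243, minus strand: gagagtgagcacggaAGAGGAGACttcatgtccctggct
Egflam, exon 19, codons 872 to 874, chr15:7219690-7219698, minus strand: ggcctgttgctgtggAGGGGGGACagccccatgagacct

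*Svep1* (chr4:58042442-58206859, minus strand, 3567 codons) and *Tinagl1* (chr4:130164454-130175122, minus strand, 466 codons) held no such run. The product of *Svep1*, a large adventitial ECM protein, is known to bind integrin α9β1 through another sequence. A run of these codons is a description of the coding sequence, not a sign that the site is exposed in the protein. No other gene overlapped one of the 8 on the same strand, and opposite-strand genes overlapped *Npnt*, *Egflam*, *Fn1* and *Svep1*.

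The files held 8947 and 6263 cells with 47009780 and 30919996 unique molecular identifiers (UMIs, each counting 1 captured RNA molecule). After removal of poor cells and called doublets, 6539 and 4614 cells were analyzed, with a median of 5671 and 5396.5 UMIs per cell. Clusters were named from marker genes, and every cell type name means cells resembling that type by its markers. SMCs numbered 2221 and 1615, fibroblasts 1637 and 1138, myeloid cells 963 and 598 and endothelial cells 738 and 651. There were 623 and 364 lymphocytes, 275 and 158 mesothelial, 46 and 76 lymphatic endothelial and 23 and 14 erythroid cells. All 8 SMC markers were detected in the summed UMIs of SMCs in both aortas, but also in those of fibroblasts, endothelial and myeloid cells. All 8 fibroblast markers were detected in the sums of fibroblasts, and all 8 endothelial markers in those of endothelial cells. Both sets were also detected in the sums of SMCs. Detection in a sum therefore does not tell the types apart, and the clusters were named from these same markers. A cluster of 13 cells of aorta 1, led by *Xist*, a transcript of the inactive X chromosome although only males are named, stayed unnamed and entered no comparison. The aortas shared 18 cell barcodes.

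For each cell type of each aorta the UMIs were added up, and levels are given as CPM (UMIs of the gene per 1e+06 UMIs of that sum), with aorta 1 before aorta 2. The 3′ chemistry counts RNA ends, so a level is compared between cell types for the same gene and not between genes, and splice forms such as those of fibronectin cannot be told apart. Levels by cell type are a description with no test, because the genes were listed with the level of *Npnt* in SMCs and fibroblasts already known. The plot of CPM by cell type shows where each gene was found. *Npnt* was highest in SMCs, *Svep1* and *Egflam* in fibroblasts, *Tinagl1* in endothelial cells and then SMCs, and *Edil3* in myeloid cells. *Emilin1* was spread over the wall, *Fn1* was high in myeloid cells and fibroblasts, and *Vtn* was nearly absent.

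**Figure D1:**
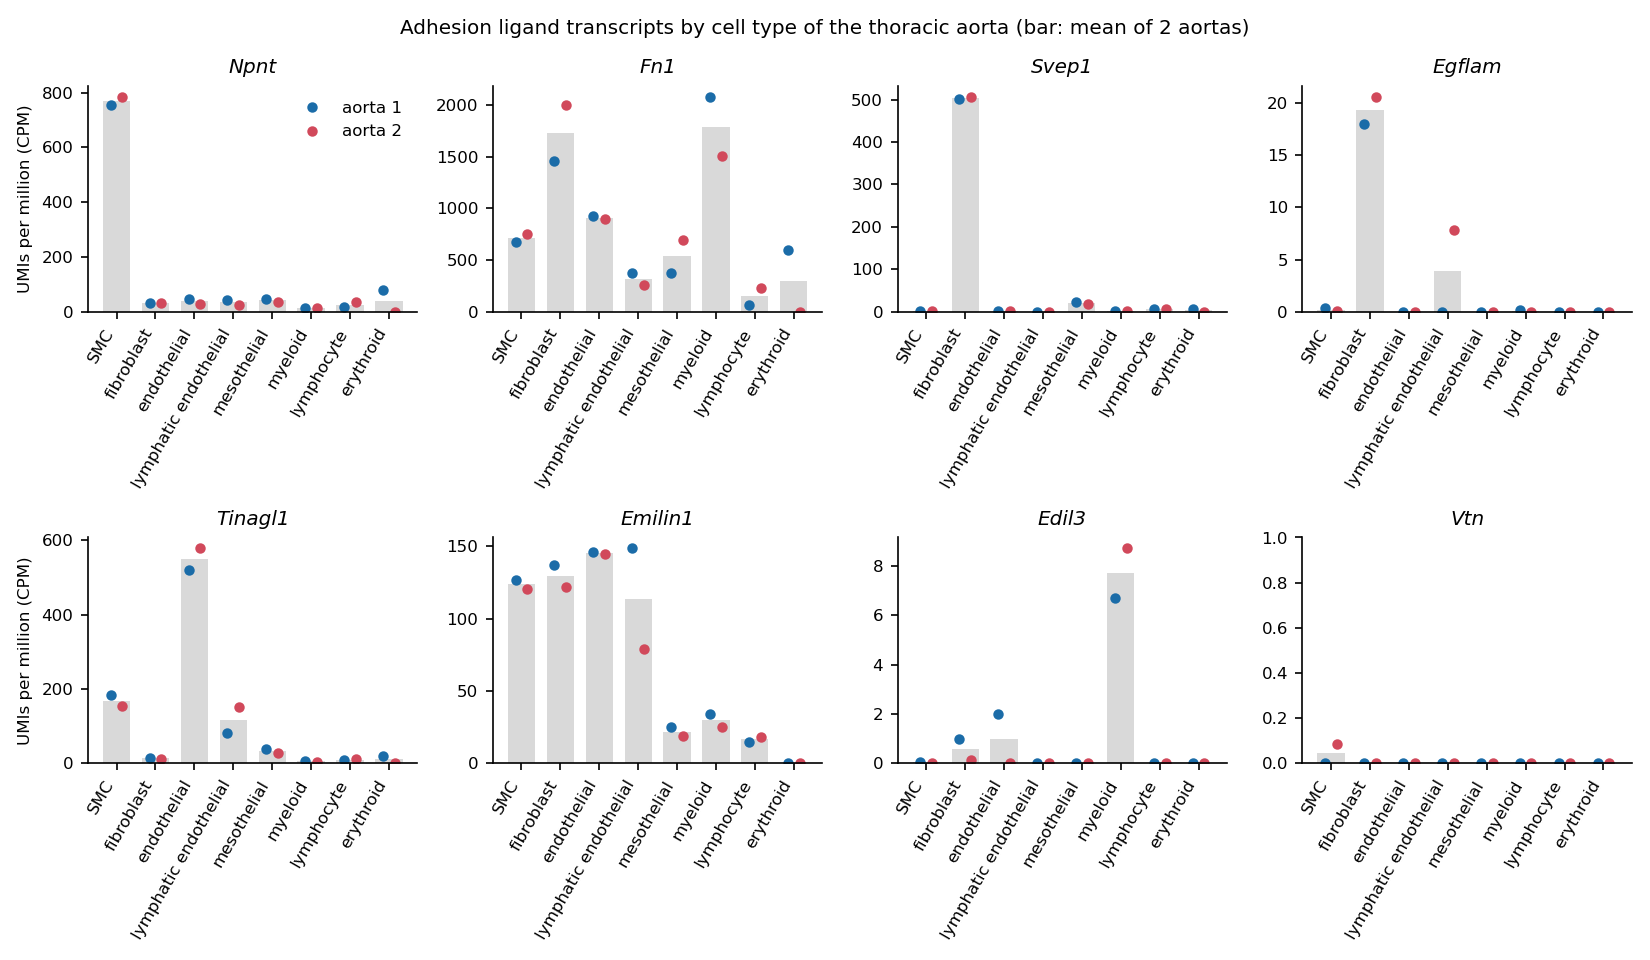
CPM (linear axis, own scale in each panel) of the 8 ligand transcripts in 8 cell types; points are the 2 aortas and bars their mean. *Npnt* stands at 755 and 785 CPM in SMCs and at 77.2 CPM or less elsewhere (the 77.2 CPM are 12 UMIs of 23 erythroid cells), and *Svep1* at 501 and 507 CPM in fibroblasts and at 22.6 CPM or less elsewhere.

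*Npnt* reached 755 CPM in SMCs of aorta 1 and 785 CPM in those of aorta 2 (mean 770.0 ± 21.7, SD, n = 2). The next cell type by mean, the mesothelial cells, held 46.3 and 35.7 CPM. SMCs therefore stood 18.8-fold above the next type, and their 2 values did not overlap those of any other type. SMCs gave 94.7% of the *Npnt* UMIs of aorta 1 (exact 95% interval 94.3 to 95.1, counting error only, as for all such intervals here) and 95.5% of those of aorta 2 (95.0 to 95.9). Of SMCs, 82.4% and 84.8% held at least 1 *Npnt* UMI. In lymphocytes, which should lack the transcript, 31 of 623 and 16 of 364 did, at median depths of 4098 and 3901 UMIs per cell against 7728 and 7473 in SMCs. With every cell thinned to 1000 UMIs, none being left out, the shares were 45.1% and 47.7% in SMCs and 0.963% and 1.37% in lymphocytes.

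Below SMCs, the order of *Npnt* was mesothelial, erythroid, endothelial, lymphatic endothelial, fibroblast, lymphocyte and myeloid, and each neighbor in that order overlapped the next except lymphocytes and myeloid cells. Fibroblasts held 32.0 and 30.9 CPM, which put the fitted log2 difference of SMCs over fibroblasts at 4.71 ± 0.18 (SE). Most of that fibroblast level lay in 1 subcluster of 132 and 90 cells, led by *Actg2* and by the SMC markers *Tagln*, *Myh11*, *Cnn1* and *Acta2*. The reporter eGFP and *Npnt* itself were also among its 10 leading genes. That subcluster held 273 and 278 CPM of *Npnt*, 983 and 989 CPM of *Itga8*, and 76.5% and 86.4% of the fibroblast *Npnt* UMIs in 8.06% and 7.91% of the fibroblasts. Summed over its cells, the 8 SMC markers reached 22939.5 and 22911 CPM and the 8 fibroblast markers 5432 and 5674 CPM. All 8 markers of both classes were detected in these sums, as in several other fibroblast subclusters. Which markers single cells carried was not examined. Without this subcluster and another of 15 and 15 cells led by immune markers, a view chosen after seeing the data, fibroblasts held 73 and 28 *Npnt* UMIs in place of 327 and 214. Whether these cells are fibroblasts, SMCs or pairs of both was not tested.

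In droplet data, RNA set free from broken cells can add UMIs of an abundant transcript to cells of other types, so the level of *Npnt* outside SMCs was set beside those of the 8 SMC markers in the same cells. Relative to its own level in SMCs, *Npnt* in fibroblasts stood at 0.0425 and 0.0393, below all 8 SMC markers (0.0457 to 0.148 and 0.0485 to 0.151). Most of this fibroblast *Npnt* lay in the SMC-marker subcluster, where the ratio was 0.361 and 0.353. In the fibroblast subcluster led by *Dio2* it was 0.00987 and 0.0120, within the range of the markers there. The other fibroblast subclusters lay within or below that range in each aorta. In mesothelial cells (0.0613 and 0.0454), myeloid cells (0.0182 and 0.0188) and lymphatic endothelial cells (0.0575 and 0.0301) *Npnt* lay within the range of the markers in both aortas. How much of the *Npnt* in these cells was free RNA was not tested. A level above all 8 markers was found inside the endothelium, as described with the endothelial subclusters.

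**Figure D2:**
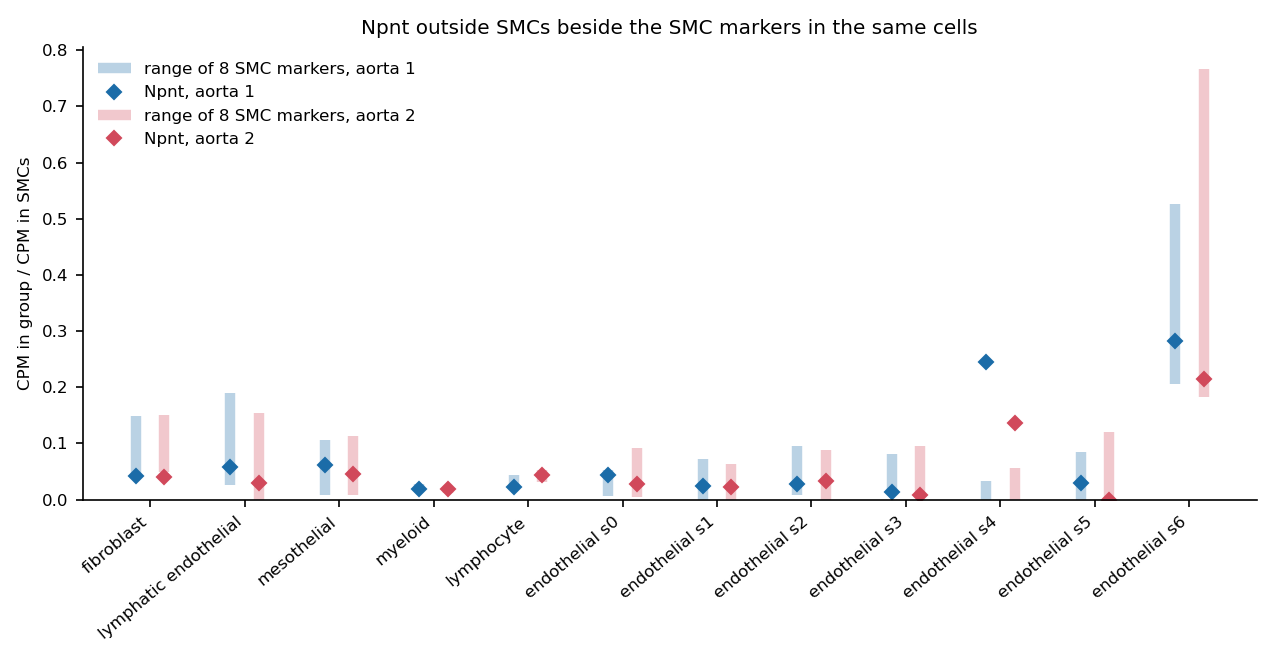
*Npnt* level of each cell group divided by its level in SMCs (linear axis, diamonds), beside the range of the same ratio over 8 SMC markers (pale bars), per aorta. The diamonds lie within or below the bars except in endothelial subcluster s4, where they stand at 0.244 and 0.137 above bars that end at 0.0336 and 0.0567.

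The receptor of nephronectin followed the same cell type. *Itga8*, encoding integrin α8, stood at 1574 and 1604 CPM in SMCs, at 153 and 155 CPM in fibroblasts and at 22.1 and 19.0 CPM in endothelial cells. Of the fibroblast *Itga8* UMIs, 57.7% and 61.5% lay in 1 fibroblast subcluster with *Tagln*, *Myh11* and *Cnn1* among its leading genes. Among SMCs thinned to 1000 UMIs, 70.6% and 72.0% held an *Itga8* UMI, and 34.2% and 37.3% held UMIs of both *Npnt* and *Itga8*. RNA of the ligand and of its receptor was thus captured in the same cells.

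Of the 10 integrin subunits listed as receptors for these ligands, 9 were tested between SMCs and fibroblasts. A gene was called at a Benjamini-Hochberg adjusted p under 0.05 in edgeR's quasi-likelihood test and a log2 difference over 1. Of the 9, 6 were higher in SMCs, with a median log2 difference of 1.85, against 9.97% of 13971 genes called higher in SMCs, 15.5% called higher in fibroblasts and a median of -0.05 over all genes tested. The list was drawn up with earlier results of these data known, so its count is a description and no independent evidence of a direction. The other 3, *Itgav* (-0.38 ± 0.11, adjusted p = 0.00431), *Itgb5* and *Itgb8*, were not called, and *Itgb6* was too rare to test. The largest differences were those of *Itga8* at 3.47 ± 0.15 (adjusted p = 8.68e-16), *Itgb3* at 2.21 ± 0.15 (adjusted p = 7.71e-12), *Itga4* at 2.19 ± 0.26 (adjusted p = 1.71e-07) and *Itga9* at 2.12 ± 0.10 (adjusted p = 1.28e-15). *Itga4* was rare in SMCs, at 10.05 and 7.15 CPM, and stood at 189 and 191 CPM in lymphocytes and 185 and 171 CPM in myeloid cells. *Itga9*, the α9 subunit, was 370.3 and 372 CPM in SMCs, 207 and 209 CPM in endothelial cells and 90.0 and 92.9 CPM in fibroblasts, so the fibroblasts that held *Svep1* were not the cells with the most *Itga9*. *Itgav*, the αV subunit, was 65.7 and 68.7 CPM in SMCs and 88.8 and 98.9 CPM in fibroblasts.

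Of 11 other ligands of these integrins, all tested, 4 were higher in SMCs and 3 in fibroblasts, with a median log2 difference of 0.71. The largest were *Spp1* (osteopontin) at -3.39 ± 0.82, *Postn* (periostin) at 3.09 ± 0.19, *Fbn1* (fibrillin-1) at -2.51 ± 0.22 and *Ccn1* at 2.05 ± 0.24. *Spp1* was rare, with a mean of 3.01 CPM in fibroblasts and 0.224 CPM in SMCs. Of 14 partners and relatives, 12 were tested, 3 were higher in SMCs and 3 in fibroblasts, with a median of -0.01. *Emilin2*, a relative of *Emilin1*, was lower in SMCs at -7.17 ± 0.23, *Tek*, an angiopoietin receptor, at -5.93 ± 0.27 and its ligand *Angpt1* at -2.75 ± 0.23. Both lists thus held members called in either direction.

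*Fn1* encodes fibronectin, the RGD ligand of integrins α5β1, α8β1 and αV. It stood at 2081 and 1502 CPM in myeloid cells and at 1458 and 2002 CPM in fibroblasts, values that overlapped. Endothelial cells followed at 921 and 892 CPM and SMCs at 671 and 748 CPM, neither overlapping its neighbor above. The log2 difference of SMCs over fibroblasts was -1.19 ± 0.36. The largest number of *Fn1* UMIs came from fibroblasts, with 34.9% (exact 95% interval 34.5 to 35.4) in aorta 1 and 44.4% (43.8 to 44.9) in aorta 2, and SMCs gave 26.2% and 27.8%. The myeloid share was 29.9% and 17.6%, so it differed between the aortas by more than the SMC share did.

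Within the myeloid cells, *Fn1* came mostly from 1 cluster of 77 and 41 cells led by *Alox15*, *Cd5l*, *Slpi*, *Marco* and *Prg4*. The cluster, singled out after its values were seen, held 8739 and 7877 CPM of *Fn1*, and 100% and 97.6% of its cells had an *Fn1* UMI. This cluster, of 77 and 41 among 963 and 598 myeloid cells, gave 80.5% and 78.2% of their *Fn1* UMIs. Its median depth was 15279 and 14820 UMIs per cell, and the share with *Fn1* stayed at 100% and 95.1% after thinning to 1000 UMIs. The next myeloid cluster, of 73 and 52 cells led by *Lyz1*, *Cd209a* and *Ear2*, held 2671 and 2096 CPM. The most numerous one, of 547 and 339 cells led by *Cd209f*, *Folr2* and *Cd163*, held only 45.1 and 22.6 CPM. In that last cluster, 56 of 547 and 34 of 339 cells held a UMI, beside 50 of 623 and 41 of 364 lymphocytes, at 66.9 and 225 CPM. Of the lymphocyte *Fn1* UMIs, 55.2% and 80.6% lay in 1 cluster of 73 and 45 cells, led by *Hist1h1b*, *Gzma* and *Top2a*. The lymphocyte CPM is therefore not a level of lymphocytes at large.

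*Svep1* came almost wholly from fibroblasts. It stood at 501 and 507 CPM there, at 22.6 and 17.8 CPM in mesothelial cells and at 1.44 and 1.12 CPM in SMCs. Fibroblasts gave 98.1% (exact 95% interval 97.7 to 98.4) and 98.7% (98.2 to 99.0) of its UMIs, and the log2 difference of SMCs over fibroblasts was -8.46 ± 0.16. Of fibroblasts, 66.2% and 66.3% held a *Svep1* UMI, against 1.28% and 1.37% of lymphocytes.

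*Egflam* encodes pikachurin, an ECM protein known from the retina as a partner of dystroglycan. It was rare, with 190 and 146 UMIs in all, of which fibroblasts held 184 and 143. Its level there was 18.0 and 20.6 CPM, and 9.16% and 9.31% of fibroblasts had a UMI. SMCs held 5 and 1 UMIs, endothelial and mesothelial cells held 0, and lymphatic endothelial cells of aorta 2 held 2 UMIs in a single cell. At the depth reached, nearly all of it was therefore found in fibroblasts.

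*Tinagl1*, which encodes a secreted basement membrane protein also called lipocalin 7, was highest in endothelial cells at 521 and 579 CPM. SMCs followed at 182 and 153 CPM, lymphatic endothelial cells at 80.5 and 149.8 CPM, mesothelial cells at 39.1 and 26.8 CPM and fibroblasts at 14.1 and 12.3 CPM. The values of endothelial cells, SMCs and lymphatic endothelial cells did not overlap. SMCs, of which there were more and with more UMIs per cell, gave 61.8% and 54.3% of the *Tinagl1* UMIs, and endothelial cells 32.2% and 40.1%. The level in SMCs was 0.350 and 0.264 of that in endothelial cells, far above the ratios of 8 endothelial markers in SMCs, which reached no more than 0.00985 and 0.0122. The log2 difference of SMCs over fibroblasts was 3.75 ± 0.16, and 78.5% and 85.9% of the fibroblast UMIs lay in the subcluster with SMC markers.

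*Emilin1*, an elastic fiber protein that binds integrins α4β1 and α9β1, was present throughout the wall. Endothelial cells held 146 and 145 CPM, fibroblasts 137 and 122 CPM and SMCs 127 and 121 CPM. Fibroblasts and SMCs overlapped, and their log2 difference was 0.04 ± 0.11. Lymphatic endothelial cells held 149 and 78.8 CPM, with a spread that overlapped SMCs. Levels in myeloid cells, mesothelial cells and lymphocytes were between 14.6 and 34.0 CPM, and erythroid cells held none. SMCs gave 49.4% and 51.3% of the UMIs and fibroblasts 32.7% and 30.8%.

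*Edil3* encodes an RGD protein with discoidin domains that binds αV integrins. Of its 58 and 33 UMIs, myeloid cells held 41 and 32, at 6.69 and 8.73 CPM. Most of these, 36 and 21, were in the *Cd209f*-led cluster, in 6.22% and 5.31% of its cells, 5 and 11 were in the *Alox15*-led cluster, and none was found in the other myeloid clusters. Fibroblasts held 10 and 1 UMIs, of which 9 in aorta 1 were in 1 subcluster, and the 6 UMIs in endothelial cells of aorta 1 were all from a single cell. *Vtn* encodes vitronectin, a plasma and ECM protein made mainly by the liver. It was represented by 1 UMI among all analyzed cells, from an SMC of aorta 2. The absence of a UMI in fibroblasts allows a level of up to 0.294 and 0.433 CPM, and the presence of the protein in the wall is not addressed by these data.

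For each gene, the genes with the most similar pattern were ranked by Pearson's r of log2(CPM + 1) over 16 sums (8 cell types in 2 aortas) among 13971 genes, as a description only, since the sums share libraries and depth. *Npnt* was closest to *Pbxip1* (r = 0.964), *Dsp* (0.955), *Ptprz1* (0.928), *Trp53inp2* (0.911) and *Stimate* (0.906). *Svep1* was closest to *Sult5a1*, *Abca8b*, *Col8a2*, *Col12a1* and *Abca8a* (0.944 to 0.96). *Egflam* was closest to *Serpinb6c*, *Apod*, *Gm21917*, *Hmcn2* and *Cilp* (0.974 to 0.997), and *Hmcn2* and *Apod* also led fibroblast subcluster s0, described with the fibroblast subclusters. *Tinagl1* was closest to *Asap2*, *Tm4sf1*, *Parm1*, *Cd59a* and *Synpo* (0.914 to 0.935), *Emilin1* to *Gadd45g*, *Zhx2*, *Ick*, *Abhd14b* and *Skil* (0.965 to 0.978), *Fn1* to *Crat*, *Hexa*, *Heatr5a*, *Alas1* and *Atg9a* (0.94 to 0.963), and the rare *Edil3* to *Csf2rb2*, *1600010M07Rik*, *Gm38832*, *Gm26714* and *Cd209d* (0.936 to 0.961).

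The variation of the ligands inside a cell type was not used to choose them and was tested. Each of the main cell types was divided into subclusters from other genes of the same cells, the ligands, the integrins and the related genes being left out of the clustering. UMIs were summed per subcluster and aorta. A gene was called at a Benjamini-Hochberg adjusted p under 0.05 in edgeR's quasi-likelihood F test over subclusters and a fitted log2 range over 1 between the highest and lowest subcluster. Because the subclusters were made from these cells, the p-values describe differences between subclusters once formed, with 2 aortas each. Fitted differences include the TMM scaling between sums, so they can differ from the ratio of 2 CPM values. Among SMC subclusters, 3 of the 8 ligand genes, 4 of which could be tested, were called, *Tinagl1*, *Fn1* and *Npnt*, against a background of 45.2% of 9311 genes tested. *Emilin1* was tested and not called, and *Egflam*, *Vtn*, *Svep1* and *Edil3* had too few UMIs in SMCs.

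The 7 SMC subclusters tested are named here by number and leading genes. They were s0 (653 and 363 cells, led by *Hand2os1*, *Tnnt2* and *Hand2*), s1 (483 and 421, *Adamtsl1*, *Hhip* and *Prss12*), s2 (414 and 379, *Hoxa7*, *Tnc* and *Tafa1*), s3 (461 and 280, *Cyb5r3*, *Atf5* and *Uchl1*), s4 (85 and 69, *Adam33* and *Malat1*), s5 (66 and 57, *Gm37800*, *Gprc5c* and *Pln*) and s6 (44 and 40, *Gdf15* and *Cdkn1a*). The heat shock genes *Hspa1a* and *Hspa1b* were also among the leading genes of s0. Subclusters s3 and s4 were shallow, with a median of 1765 and 1960.5 UMIs per cell against 7368.5 to 10298 in the others. The leading genes of s6 include targets of the DNA damage response such as *Cdkn1a* and *Mdm2*. All 8 SMC markers were detected in every one of the 7, at summed levels between 22528 and 57951 CPM. The sum was 23925 and 25543 CPM in s1 and 25508 and 30430 CPM in s6, against 48366 and 45310.3 CPM in s0, and s4 also held myeloid markers at 1305 and 434 CPM. The part of these differences in the results below was not tested.

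*Tinagl1* varied most among SMCs. It was lowest in s1, at 30.9 and 31.0 CPM, and highest in s5, at 421 and 392 CPM. Values were 256 and 209.8 CPM in s0, 185 and 181 CPM in s2, 149 and 122 CPM in s3, 244 and 269.7 CPM in s4 and 90.1 and 106 CPM in s6. The aortas did not overlap between s1 and any other subcluster. The fitted range was 3.87 (adjusted p = 2.57e-15 in the edgeR quasi-likelihood F test, n = 2 aortas), and s0 exceeded s1 by 3.11 ± 0.14 on the log2 scale. With cells of 5000 to 25000 UMIs it was called too, but no size is given, since the lowest subcluster there, of 35 and 19 cells led by the leukocyte genes *Cd52*, *Ccr2* and *Chil3*, held 0 *Tinagl1* UMIs. The share of cells with a *Tinagl1* UMI after thinning was 2.48% and 2.38% in s1 and 19.9% and 17.4% in s0. Endothelial markers summed to 62.8 and 68.6 CPM in s1 and to 37.6 and 52.4 CPM in s0, and the part of endothelial RNA in the *Tinagl1* of SMCs was not tested.

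*Fn1* ran in another order. It was lowest in s0, at 293 and 334 CPM, and reached 1099 and 1068 CPM in s2 and 963 and 1248 CPM in the shallow s3, which overlapped. Subcluster s1 held 779 and 719.6 CPM, and s4 to s6 held 505 to 669.7 CPM. The fitted range was 2.18 (adjusted p = 4.12e-12 in the edgeR quasi-likelihood F test, n = 2 aortas), and s2 exceeded s0 by 1.77 ± 0.14. Between the same subclusters *Npnt* differed by 0.11 ± 0.12 and *Tinagl1* by 0.38 ± 0.12, with s0 the higher. The fibroblast markers, from cells where *Fn1* is higher, summed to 97.7 and 91.6 CPM in s0, 77.9 and 59.6 CPM in s2, 218 and 212 CPM in s1 and 174 and 175 CPM in s3, and their part in the *Fn1* of SMCs was not tested.

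*Npnt* varied less. It was 886 and 955 CPM in s0 and 859.6 and 871 CPM in s2, 513 and 593 CPM in s1, 571 and 632 CPM in s5 and 399 and 382 CPM in s6. The shallow s3 and s4 held 607 to 809 CPM. Every SMC subcluster exceeded the 77.2 CPM that was the highest level outside SMCs at the scale of cell types. The fitted range was 1.44 (adjusted p = 1.55e-08 in the edgeR quasi-likelihood F test, n = 2 aortas), with s0 above s1 by 0.92 ± 0.13 and above s6 by 1.44 ± 0.15. Without s3, s4 and s6, left out after seeing the data for their depth and their stress genes, the range was 0.94 (adjusted p = 2.42e-07), so that the count of called ligand genes fell to 2. The range also stayed under 1, and the call ended, with doublets kept (0.93), with no UMI limits per cell (0.96) and at the lower clustering resolution (0.85). With cells of 5000 to 25000 UMIs it was 4.63, down to 7 and 9 UMIs in the leukocyte-gene subcluster. *Emilin1* held 143 and 128 CPM in s0 and 71.3 and 78.4 CPM in s5, with a range of 0.90 (adjusted p = 0.000838) that did not reach 1. It was called with cells of 5000 to 25000 UMIs (range 2.19, adjusted p = 1.92e-07, with the leukocyte-gene subcluster the lowest at 9 and 4 UMIs) and with no UMI limits (range 1.06, adjusted p = 0.000145).

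**Figure D3:**
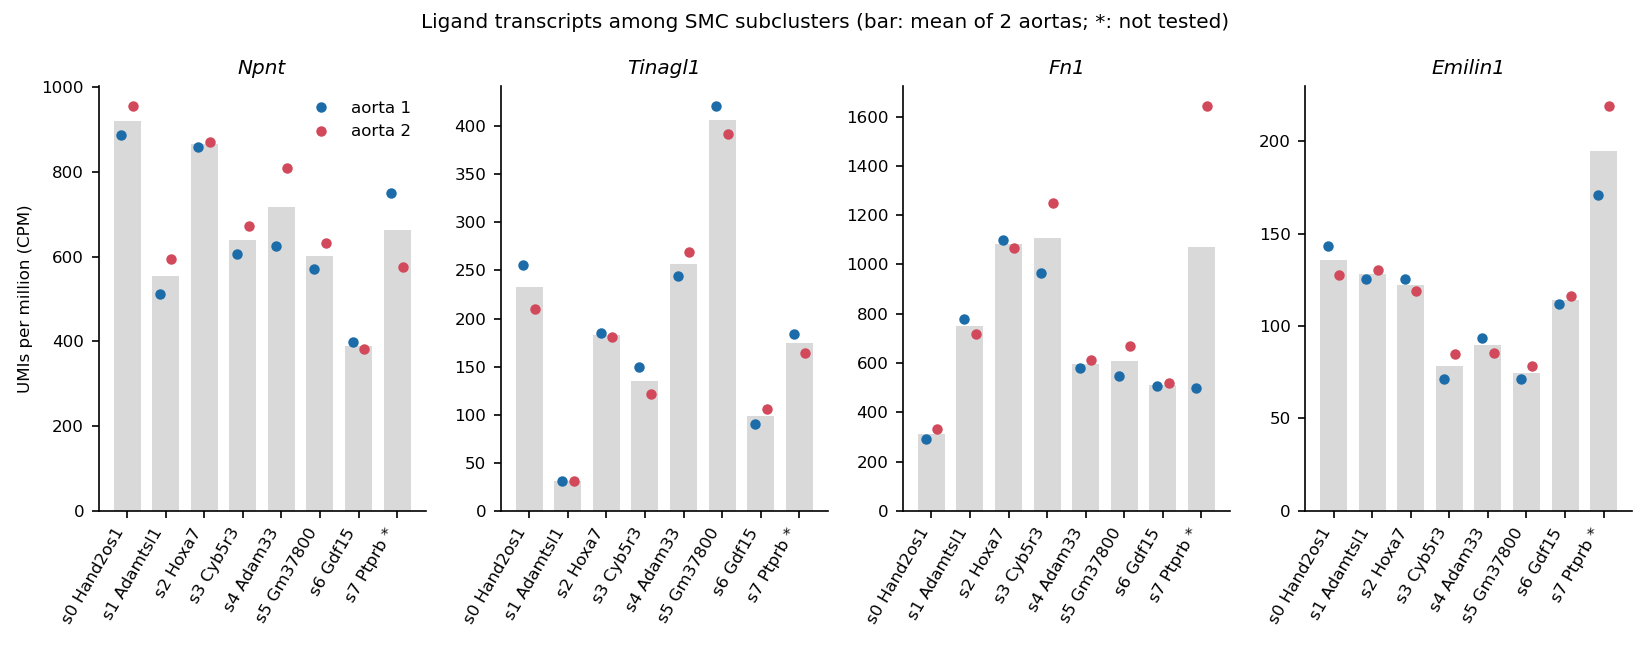
CPM (linear axes) of 4 ligand transcripts in the SMC subclusters, labelled by number and leading gene; points are the 2 aortas, bars their mean, and the asterisk marks s7, not tested. *Tinagl1* falls to 30.9 and 31.0 CPM in s1, and *Fn1* to 293 and 334 CPM in s0, where *Npnt* is at 886 and 955 CPM.

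The integrin subunits differed among SMC subclusters in 7 of the 9 tested, against the 45.2% of all genes. *Itga8* held 1536 and 1513 CPM in s0, 1678 and 1764 CPM in s1, 1579 and 1673 CPM in s3 and 931 and 803 CPM in s6 (fitted range 1.48 from s3 to s6, adjusted p = 4.48e-07). The subcluster with less *Npnt* among the large ones, s1, was therefore not one with less *Itga8*, whereas s6 was lowest in both. *Itga5*, the α subunit of the classic fibronectin receptor, was 27.0 and 25.5 CPM in s1, 174 and 155 CPM in s2 and 224 and 178 CPM in s4 (fitted range 3.06 from s4 to s1, adjusted p = 1.93e-12), and *Itgb8* was 49.2 and 52.7 CPM in s1 and no more than 13.7 CPM in the other subclusters tested (adjusted p = 2.34e-12, with no fold given, since s3 held 1 and 0 UMIs). Of the other ligands listed, 9 of 9 tested were called in SMCs, and of the partners 5 of 7.

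Fibroblasts formed 6 subclusters that were tested, and 4 of the 8 ligand genes, 5 of which could be tested, differed among them, against a background of 29.0% of 10803 genes tested. These were *Fn1*, *Svep1*, *Egflam* and *Emilin1*. *Fn1* was highest in s2, *Svep1* in s3, and *Egflam* and *Emilin1* both in s1. *Npnt* was tested and not called, and *Tinagl1*, *Vtn* and *Edil3* had too few UMIs to test. The subclusters were s0 (426 and 342 cells, led by *Kitl*, *Hmcn2* and *Comp*), s1 (395 and 251, *Dio2*, *Lamc3* and *Frzb*), s2 (196 and 235, *Pla1a*, *Dact2*, *Car8* and *Dpp4*), s3 (236 and 125, *Lrrn1*, *Pax1* and *Fmod*), s5 (155 and 58, *Lepr*, *Igfbp3* and *Epyc*) and s6 (82 and 22, *Chrm2* and *Mab21l2*). The 2 others, s4 with SMC markers and s7 with immune markers, were left out of the test because markers of another class led them.

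*Fn1* was 5966 and 5520 CPM in s2, 1905 and 1745 CPM in s0 and 171 and 176 CPM in s1. Subclusters s3, s5 and s6 held 224 to 529 CPM. The fitted range was 5.06 (adjusted p = 8.26e-18 in the edgeR quasi-likelihood F test, n = 2 aortas), with s2 above s0 by 1.66 ± 0.19 and above s1 by 5.06 ± 0.22. Subcluster s2 gave 57.1% and 65.7% of the fibroblast *Fn1* UMIs from 12.0% and 20.7% of the fibroblasts, and 99.5% and 99.1% of its cells held a UMI, against 34.7% and 37.8% in s1. The share of s2 among fibroblasts was higher in aorta 2, as was the *Fn1* of all fibroblasts. Within the subclusters tested, *Fn1* was higher in aorta 2 in s3 (224 and 328 CPM) and s5 (281 and 529 CPM). It was lower in aorta 2 in s0, s2 and s6 (483 and 395 CPM in s6) and nearly equal in s1. What the difference between the aortas came from was not tested.

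*Svep1* was highest in s3, at 1110 and 1348 CPM, and stood at 741 and 660.5 CPM in s0, 455 and 619.9 CPM in s1, 304 and 451 CPM in s5, 200.1 and 189 CPM in s2 and 68.4 and 11.6 CPM in s6. The fitted range was 4.70 (adjusted p = 2.62e-13 in the same F test), and its lower end rests on 36 and 2 UMIs in s6. Subcluster s3, of 236 among 1637 and 125 among 1138 fibroblasts, held 27.9% and 22.2% of their *Svep1* UMIs. *Egflam* was restricted in another way. It was 30.5 and 45.1 CPM in s1, 26.7 and 26.1 CPM in s0 and 20.2 and 32.8 CPM in s3, which overlapped both, and 6.16 and 5.79 CPM in s5, while s2 held 0 and 1 UMIs and s6 held 1 and 0 (adjusted p = 2.23e-09). No fold is given against s2 or s6 at these counts.

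*Emilin1* was 183 and 179 CPM in s1 and 45.6 and 49.7 CPM in s2, 113 to 140.4 CPM in s0, s3 and s5 and 154 and 58.1 CPM in the small s6 (fitted range 1.91, adjusted p = 9.26e-08). Subcluster s2, the highest in *Fn1*, was thus the lowest in *Emilin1* and held almost no *Egflam*. Without s2, a setting chosen after seeing the data, *Emilin1* had a range of 0.61 (adjusted p = 0.0405) and was not called, while *Fn1* (range 3.39), *Svep1* (range 4.70) and *Egflam* (adjusted p = 3.22e-05) were. *Npnt* did not pass among these 6 subclusters (range 1.38, adjusted p = 0.431), where it never exceeded 17.1 CPM. It passed with doublets kept (range 1.72, adjusted p = 0.0398), at the higher clustering resolution (adjusted p = 0.0168) and with s4 and s7 kept (range 5.84, adjusted p = 3.28e-16).

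**Figure D4:**
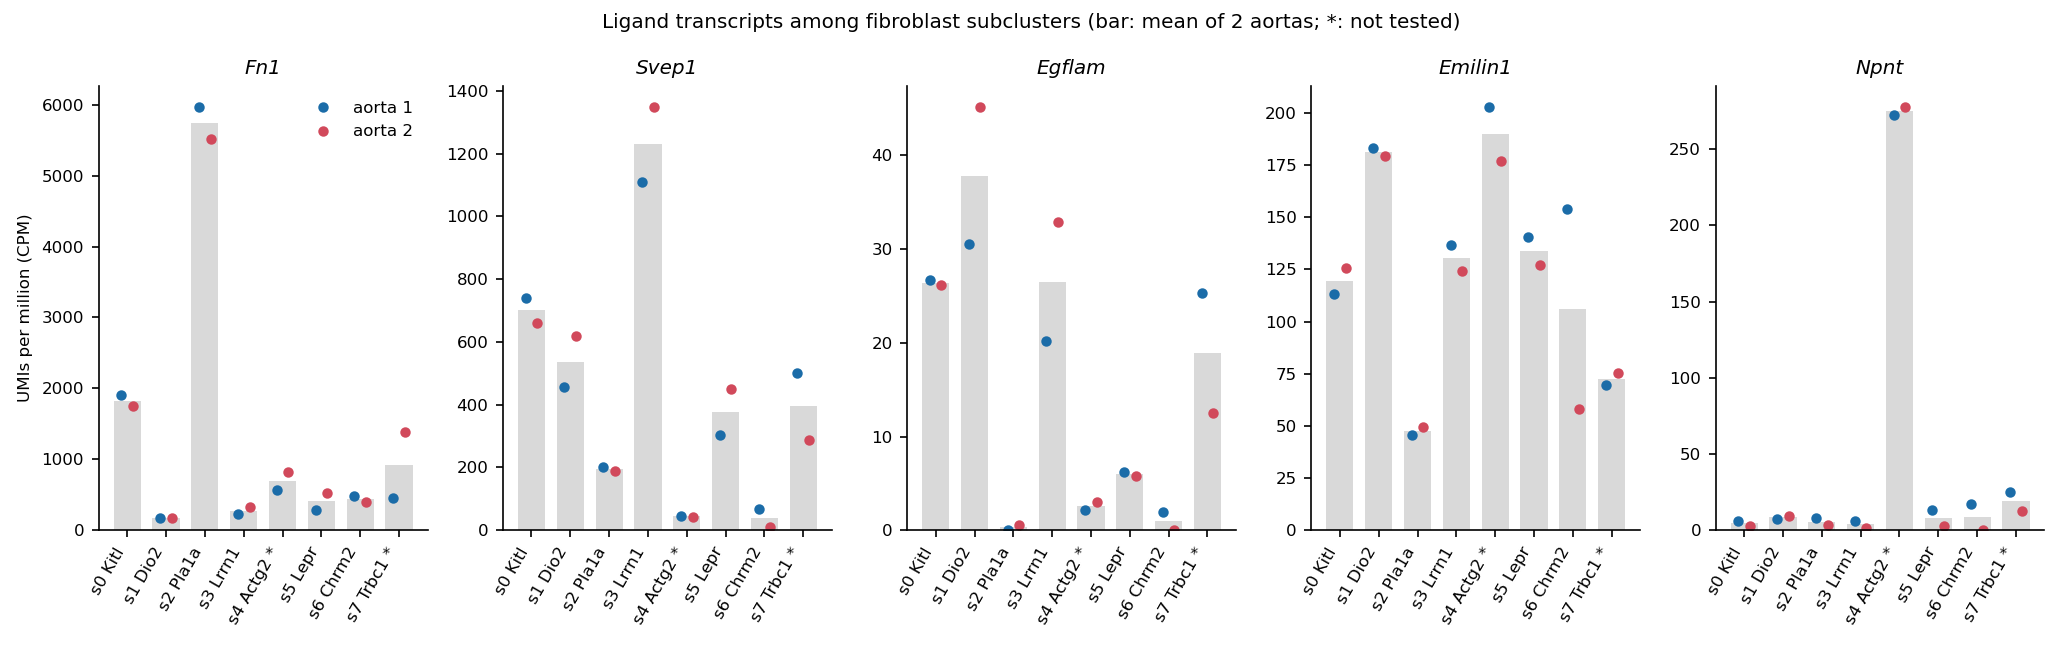
CPM (linear axes) of 5 ligand transcripts in the fibroblast subclusters, labelled by number and leading gene; points are the 2 aortas, bars their mean, and asterisks mark s4 and s7, not tested. *Fn1* peaks in s2 at 5966 and 5520 CPM, *Svep1* in s3 at 1110 and 1348 CPM, and *Npnt* in the SMC-marker subcluster s4 at 273 and 278 CPM.

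The receptors also differed among fibroblast subclusters, in 6 of the 8 integrin subunits tested, against the 29.0% of all genes. *Itga8* was 143 and 205 CPM in s1 and 91.0 and 95.1 CPM in s3 but no more than 38.0 CPM in s0, s2, s5 and s6 (range 3.30, adjusted p = 3.23e-11). In s1 this was 0.0906 and 0.128 of the SMC level, within the 0.00954 to 0.171 and 0.00486 to 0.161 of the 8 SMC markers, and *Npnt* was at 0.00987 and 0.0120. The SMC markers summed to 1084 and 894 CPM in s1, 591 and 404 CPM in s3, 594 and 491 CPM in s0, 627 and 405 CPM in s2, 494 and 443 CPM in s5 and 1583 and 895 CPM in s6, where *Itga8* was 38.0 and 11.6 CPM, and their part in this difference was not tested. *Itgb3*, which pairs with αV, was 37.2 and 37.0 CPM in the *Fn1*-rich s2 and no more than 20.5 CPM in the other subclusters tested (adjusted p = 2.44e-09, with no fold given, since s6 held 1 and 0 UMIs). *Itga9* was highest in s3, as was *Svep1*, at 122 and 116 CPM against 39.9 and 52.3 CPM in s6 (range 1.64, adjusted p = 2.49e-06).

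In the endothelium, 4 of the 8 ligand genes differed among 6 subclusters, against a background of 21.6% of 7818 genes tested. They were *Fn1*, *Tinagl1*, *Npnt* and *Emilin1*, all that could be tested. The subclusters were s0 (195 and 215 cells, led by *Nkx2-3* and *Vegfa*), s1 (153 and 161, *Adra2a* and *Cyp4b1*), s2 (129 and 77, *Dcn* and *Emb*), s3 (113 and 86, *Ccdc39* and *Fxyd6*), s4 (97 and 53, *Jag2*, *Sema3g* and *Igf2*) and s5 (39 and 51, *Gpihbp1*, *Cd36* and *Tcf15*). A further one of 12 and 8 cells, led by *Itga8* and other SMC transcripts, was too small to test.

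*Npnt* stood out in s4, at 184 and 107 CPM (71 and 18 UMIs), while s0, s1, s2, s3 and s5 held 0 to 33.0 CPM. The fitted range was 4.10 (adjusted p = 4.57e-09 in the edgeR quasi-likelihood F test, n = 2 aortas), with 5 and 2 UMIs in the lowest, s3, and s4 exceeded s0 by 2.49 ± 0.30. In s4, 35.1% and 18.9% of cells held an *Npnt* UMI, against 9.74% and 6.98% in s0, at median depths of 3403 and 2941 UMIs per cell against 3226 and 2953. After thinning the shares were 13.4% and 7.55% in s4 and 4.62% and 2.33% in s0. The largest count in 1 cell of s4 was 9 UMIs in aorta 1 and 4 in aorta 2. The 8 SMC markers summed to 1041 and 644 CPM in s4, within the 473 to 1573 CPM of the other 5, and *Itga8* was 18.2 and 5.97 CPM. Relative to SMCs, *Npnt* was at 0.244 and 0.137 in s4, above all 8 SMC markers, while *Itga8* was at 0.0115 and 0.00372. In fibroblast subcluster s4, by comparison, *Itga8* was at 0.625 and 0.616 and *Npnt* at 0.361 and 0.353, below all 8 markers.

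*Tinagl1* was 768 and 873 CPM in s1, 565 and 695 CPM in s2, 563 and 537 CPM in s4, 464 and 466 CPM in s0, 329.5 and 364 CPM in s5 and 243 and 327 CPM in s3 (fitted range 1.65, adjusted p = 1.02e-08). It was therefore present in all endothelial subclusters. *Fn1* was 1399 and 1387 CPM in s1, 1057 and 1044 CPM in s2, 975 and 880.0 CPM in s0, and 127 and 116 CPM in s5, whose leading genes *Gpihbp1* and *Cd36* are known from capillary endothelium (fitted range 3.61, adjusted p = 1.14e-13, and 1.74 with cells of 5000 to 25000 UMIs). Myeloid markers summed to 1475 and 878 CPM in s5 and to no more than 87.0 CPM in the other 5, and fibroblast markers to 2464 and 1780.4 CPM in s2 and to no more than 1329 CPM in the other 5; their part was not tested. *Emilin1* was 171 and 203 CPM in s2 and 88.3 and 59.6 CPM in s4 (range 1.30, adjusted p = 0.00178). Without s4, a setting chosen after seeing the data, *Npnt* (range 1.60, adjusted p = 0.222) and *Emilin1* (range 0.85, adjusted p = 0.125) were not called. Both calls therefore rested on this subcluster. With cells of 5000 to 25000 UMIs, *Emilin1* was not called (range 0.68, adjusted p = 0.389) and *Npnt* was not tested.

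**Figure D5:**
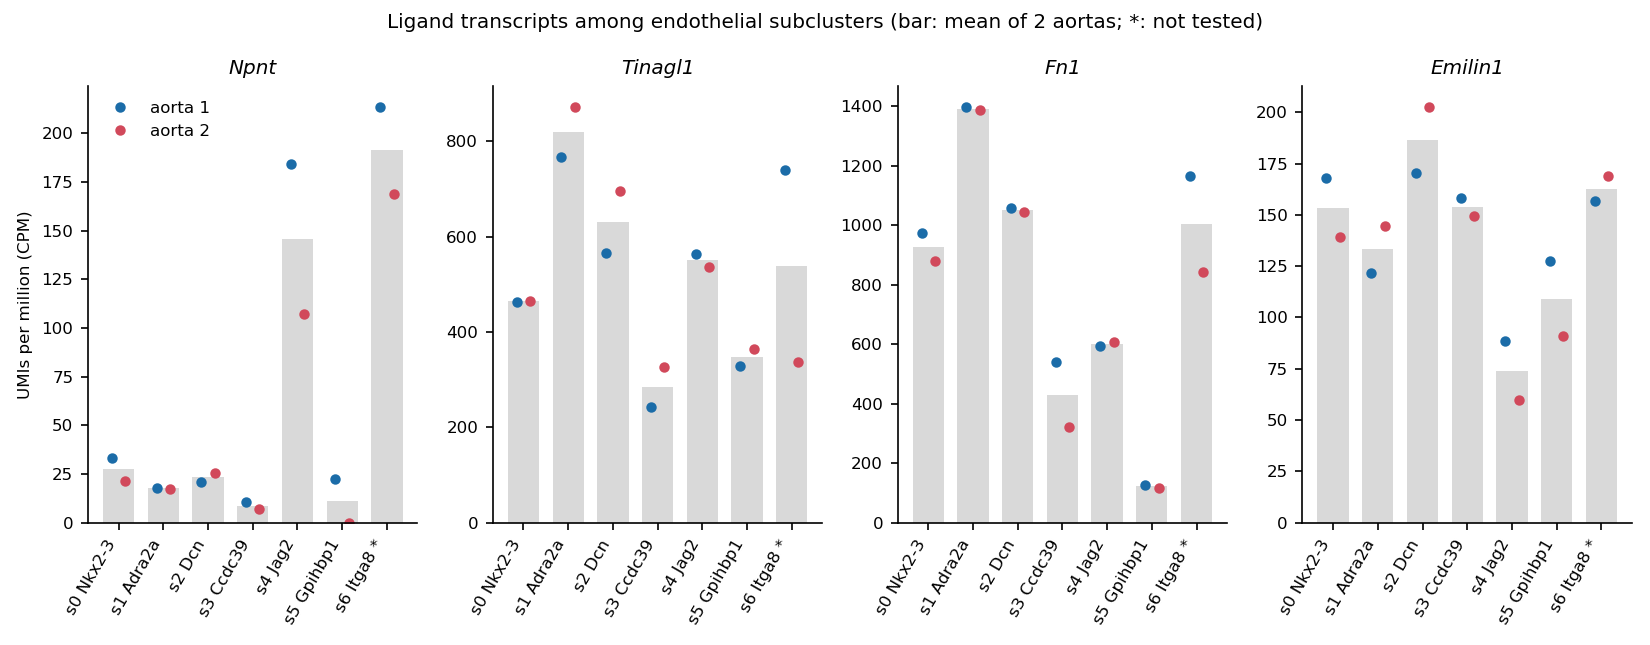
CPM (linear axes) of 4 ligand transcripts in the endothelial subclusters, labelled by number and leading gene; points are the 2 aortas, bars their mean, and the asterisk marks s6, not tested. *Npnt* is at 184 and 107 CPM in s4 against 33.0 CPM or less in the other tested subclusters, and *Fn1* falls to 127 and 116 CPM in s5.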

How the data were processed

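Single-cell libraries (3′ v3.1 chemistry) of 2 aortas were used, 1 group of n = 2. The deposited values are raw UMI counts per gene and cell, made by the authors with Cell Ranger 4.0.0 on mm10 plus eGFP and tdTomato, without normalization, and the processing notes also name Seurat 4.0. Strand use in counting is not given in the sources used here. The members and gene lists were chosen with earlier results of these data known. Cells with more than 200 genes, 1000 to 25000 UMIs and under 10% mitochondrial UMIs were kept (6744 of 8947 and 4698 of 6263, where the labels give 6278 and 4300 after filtering), and Scrublet doublets (205 and 84 cells, 3.04% and 1.79%) were removed. Cells were clustered in Python 3.11.15 with scanpy 1.11.5 and leidenalg 0.10.2 (2000 variable genes, 30 principal components, 15 neighbors, resolution 1, and 0.5 for subclusters). The 8 ligands, their pathway lists, all integrins, 20 genes of the study's text, the reporters and mitochondrial genes were left out. A cluster was named from at least 3 markers of its class, each in at least 25% of its cells, and gave 29 named clusters of 30 in 8 types. No annotation of cells by the study was used, so names may differ from the study's.

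UMIs were summed per aorta and group of at least 10 cells and fitted with edgeR 4.0.16 in R 4.3.3 (TMM, filterByExpr, quasi-likelihood test, Benjamini-Hochberg adjustment over all genes tested). Subclusters with at least 2 markers of another class among their 10 leading genes, or under 10 cells in an aorta, were not tested. Named genes were the 8 ligands in every comparison, the 4 largest called differences of each pathway list (1 of them is not reported here), integrins beside their ligands, and the 5 genes most similar to each ligand. Myeloid clusters were chosen after their values were seen. Labels name separate animals. Sums of the same aorta pair by animal, and deviations from group means correlated at -0.04 to 0.10 (median 0.02, 28 pairs). The steps were tested on simulated data. Codons were read from the GENCODE annotation of GRCm38, the build of the files under the name mm10.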

Additional observations from a re-analysis of the deposited data

How the results depend on the processing

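Of 38 recomputed counts of called genes, 36 stayed within 1.5 times the reported count. The 2 others were the count of ligand genes among endothelial subclusters, 2 in place of 4 with cells of 5000 to 25000 UMIs and 2 without subcluster s4. For counts as small as those of the ligand genes this limit is wide. Among fibroblast subclusters the count, 4, became 3 without s2 and 5 with doublets kept or with no filter on low counts. It became 6 at the higher clustering resolution and 6 with s4 and s7 kept. Among SMC subclusters the count, 3, lay between 2 and 4. *Npnt* among SMC subclusters had a range of 0.93 with doublets kept, 0.96 with no UMI limits and 0.85 at the lower clustering resolution, with adjusted p of 1.16e-05 or less. With cells of 5000 to 25000 UMIs the SMCs included a subcluster of 35 and 19 cells led by leukocyte genes, the lowest in *Npnt* (range 4.63, from 7 and 9 UMIs) and *Tinagl1* (0 UMIs, so no size is given). *Fn1* among endothelial subclusters was 1.74 (reported as 3.61) there. These 3 were still called, and *Fn1* among SMC subclusters was 1.34 (reported as 2.18) at the lower resolution. The cause of the changes in *Fn1* was not tested. *Npnt* among fibroblast subclusters passed under 3 settings given beside it. The difference of *Npnt* between SMCs and fibroblasts ranged from 4.21 to 6.81, and that of *Tinagl1* from 3.43 to 5.77, on the log2 scale. That of *Svep1* ranged from -8.70 to -7.63. Shares of UMIs from SMCs also depended on the settings, beyond the counting error given with them. The SMC share ranged from 54.3% to 73.7% for *Tinagl1*, from 48.9% to 60.8% for *Emilin1* and from 91.4% to 96.4% for *Npnt*. The *Emilin1* difference, 0.04, reversed to -0.063 under scaling by library size alone. The replicate block, in which the 2 aortas pair by animal, changed no call of a ligand gene among subclusters, left the counts at 3 in SMCs and 4 each in fibroblasts and endothelial cells, and gave 3570 genes called between SMCs and fibroblasts in place of 3557. Leaving out 1 aorta leaves no residual degrees of freedom, so it was run for values only. Depth limits *Egflam*, *Edil3* and *Vtn*.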
